A study of Homo sapiens with 15 samples.

Results

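Proliferative crisis is the stretch of slow growth that RPE1-hTERT cells pass through under continuous cyclin E overproduction, with a timing that by the paper varied between cultures. It is compared here with the uninduced state, gene by gene. The comparison rests on 6 of the 15 RNA-seq libraries of the series, 3 from crisis cells against 3 from control cells, and the libraries were picked by their labels alone. RPE1-hTERT is an established human line of retinal pigment epithelial cells immortalized with telomerase. Every culture, the control cells included, carries the pINDUCER20-CCNE1 virus, which places a CCNE1 cDNA under doxycycline control, and the cells are a clone taken after selection with Geneticin. Control cells received 0 ng/ml doxycycline. Crisis cells received 20 ng/ml doxycycline, which by the labels lasted 15 d in crisis 1 and 18 d in crisis 2 and crisis 3. The drug, the cyclin it induces and the time in culture differ together between these groups, so their effects cannot be told apart. Acute cells (2 d of doxycycline), adapted cells (39, 41 and 51 d) and recovery cells (31, 42 and 46 d of doxycycline, then 18, 46 and 17 d without it) were used to estimate the spread of each gene and, where named, to show its course.

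Cyclin E1 binds and activates CDK2 late in G1 phase, and the active kinase drives entry into S phase. Replication origins are licensed in G1 by loading of the MCM helicase, which needs the origin recognition complex, CDC6 and CDT1. When cyclin E is overproduced, G1 becomes short, S phase starts with fewer licensed origins, and stalled forks activate the ATR and ATM kinases and p53, whose target p21 (CDKN1A) inhibits CDK2.

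The deposited unit is TPM, in which each transcript is scaled by length and by the total of its library, and from which depth cannot be read, so the reads behind a value are unknown. The 3 control libraries listed 26841 to 27126 genes above 0 TPM and the 3 crisis libraries 27394 to 27630. Libraries also differed in how levels followed the GC content of genes, with a Spearman rho across 10185 genes of 0.72, 0.60 and −0.14 for control 1 to 3 and 0.45, 0.63 and −0.43 for crisis 1 to 3. The rho of the log2 fold change with GC content was −0.32, so list medians are also given with each library corrected by a loess curve of level on GC content (the GC correction). Genes are not independent replicates, and no p is attached to these values.

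CCNE1, the induced gene, checks the labels. Its mRNA stood at 7.09, 6.27 and 7.88 TPM in control cells and at 44.9, 32.9 and 38.9 TPM in crisis cells. The groups were far apart, with the lowest crisis library well above the highest control library. By mean TPM the level in crisis was 5.49 times that of control cells, and the log2 fold change of TPM + 1 (log2FC below) was 2.30 (SE 0.11, adjusted p = 3.05e-09 from limma with Benjamini-Hochberg adjustment). An exact 2-sided permutation test of 3 against 3 libraries gave p = 0.1, the smallest it can give. The crisis level was also below that of acute cells, which held 163, 154 and 136 TPM, with a log2FC between crisis and acute cells of −1.94 (SE 0.11, adjusted p = 4.57e-08 from limma). It was the single gene called between crisis and acute cells, or 0.00981% of the 10196 genes tested.

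**Figure D1:**
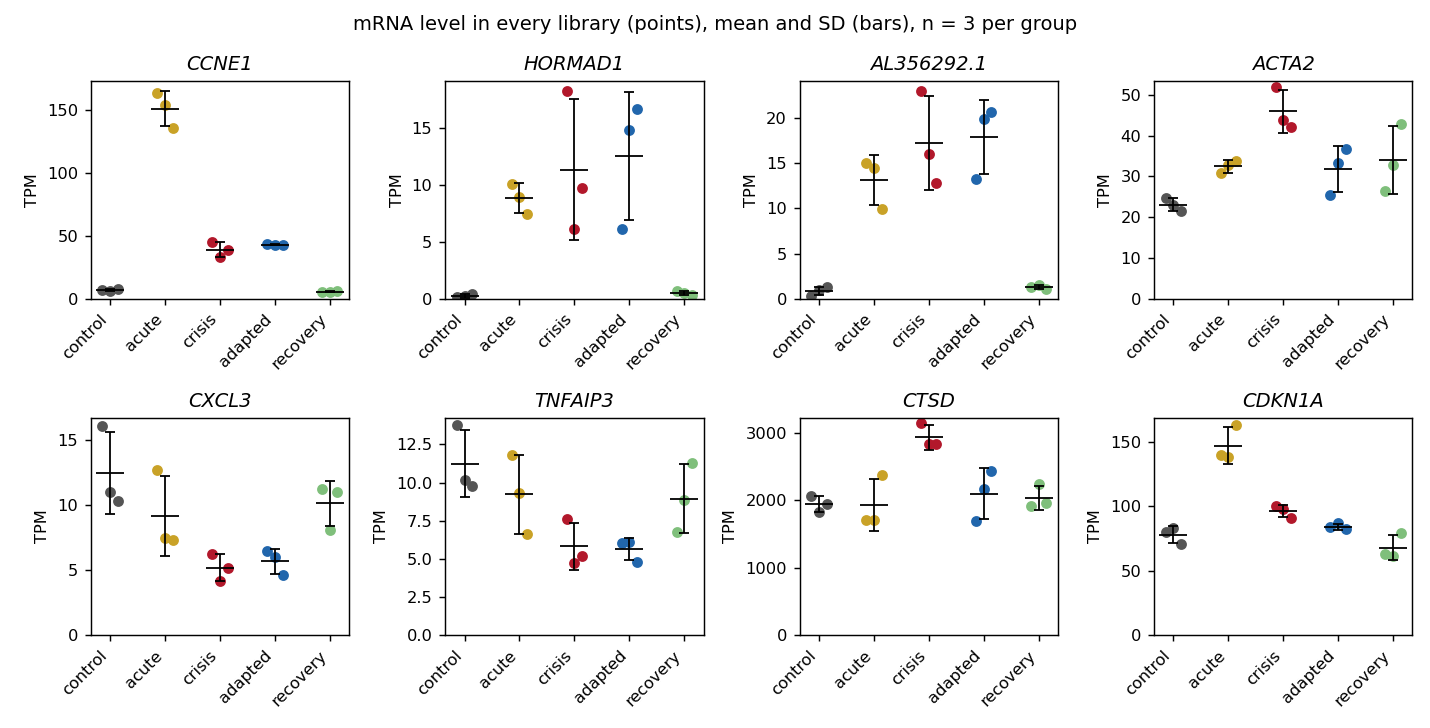
Level of 8 genes in TPM (vertical axes, from 0) in each of the 15 libraries, grouped as control, acute, crisis, adapted and recovery. Points are libraries, and the black bars give the mean and SD of 3. CCNE1, HORMAD1, AL356292.1 and ACTA2 stand higher in all crisis libraries than in all control libraries, CXCL3 and TNFAIP3 stand lower, and CDKN1A peaks in acute cells.

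Few genes passed the test between crisis and control cells. Of the 10196 genes that averaged 5 TPM or more over the 15 libraries, 4 were called at an adjusted p under 0.01 (0.0392% of those tested), and all 4 rose: CCNE1, HORMAD1, AL356292.1 and AC008440.2. Raising the threshold to 0.05 added TRIML2, ACTA2 and NPIPB4, again all higher, for 7 genes. The count of 4 was 3 without control 1, control 2, crisis 2 or crisis 3, because AC008440.2 was lost, and 7 without control 3, where ARNT, SIK1 and TRIML2 joined. Without adjustment, 950 genes were higher (9.32%) and 187 lower (1.83%) with a limma p under 0.05. The crisis libraries lay wholly above the control libraries for 1329 genes (13.0%) and wholly below them for 255 (2.50%). The split between higher and lower genes differed between treatments of the table. The GC correction gave 560 higher and 611 lower genes at that p, a median-of-ratios rescaling 363 and 536, and leaving out rRNA 329 and 600. Of all tested genes 69.9% had a higher mean in crisis cells, the share against which the counts of higher means below are to be read. The shares of 13.0% and 2.50% hold likewise for separate groups. For counts at an unadjusted p under 0.05 as deposited, the shares are 9.32% and 1.83%. Counts at that p after the GC correction are to be read against its 560 and 611 of 10185 genes. Those after rescaling are to be read against 363 and 536 of 10196. For fits with a library left out, no count at that p over all genes is given here. The median log2 fold change of all genes was 0.08 as deposited and −0.01 after the rescaling.

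**Figure D2:**
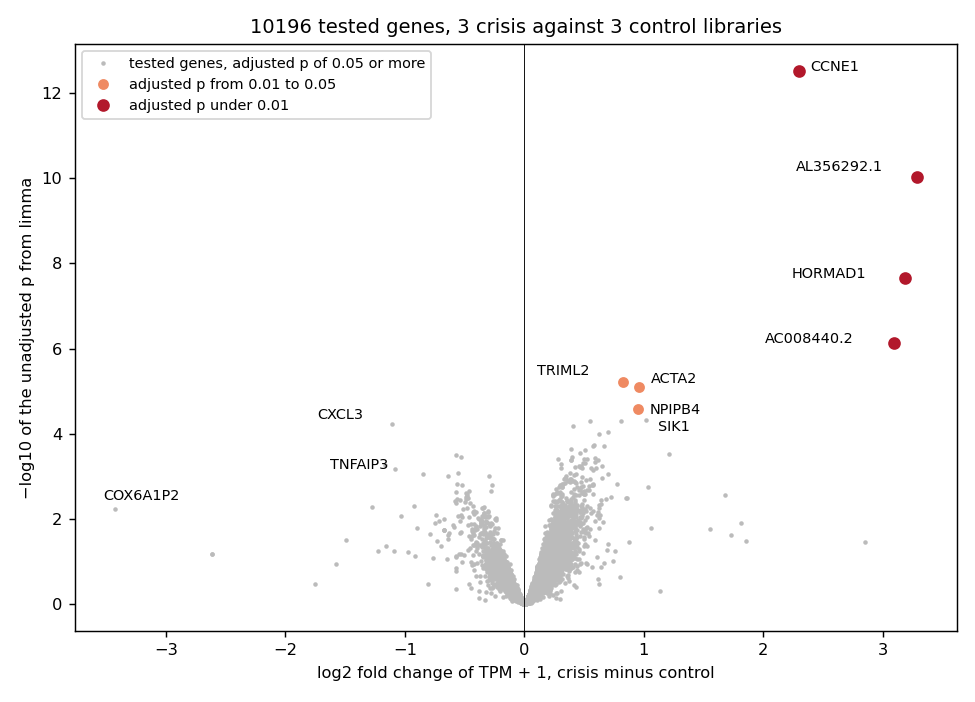
Each of the 10196 tested genes by its log2 fold change of TPM + 1, crisis minus control (horizontal axis), and −log10 of its unadjusted p from limma (vertical axis). The 4 genes with an adjusted p under 0.01 (dark red) and the 3 between 0.01 and 0.05 (orange) all lie to the right of 0. The lowest estimate belongs to COX6A1P2, which did not pass the test.

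HORMAD1 encodes a HORMA domain protein of meiotic chromosomes that somatic cells usually keep silent. It lies on the minus strand of chromosome 1 (hg38) from 150698060 to 150720895. In control cells it was at 0.111, 0.234 and 0.401 TPM and in crisis cells at 18.2, 6.12 and 9.71 TPM. It rose with a log2FC of 3.19 (SE 0.32, adjusted p = 7.59e-05 from limma). AL356292.1, a processed pseudogene on the plus strand of the same chromosome from 150780272 to 150780644, rose as well. It went from 0.333, 1.01 and 1.242 TPM to 22.9, 15.98 and 12.8 TPM (log2FC 3.29, SE 0.23, adjusted p = 4.82e-07). The pseudogene starts 59377 bp beyond the end of HORMAD1 at which its transcription begins. Both were already high in acute cells, HORMAD1 at 10.1, 8.91 and 7.44 TPM and AL356292.1 at 15.0, 14.5 and 9.91 TPM. Their means in adapted cells were 12.5 and 17.9 TPM, so the higher level was shared by the groups on doxycycline. The log2FC between crisis and acute cells was 0.22 for HORMAD1 and 0.35 for AL356292.1. In both genes crisis 1 was the highest library, and every recovery library was back under 1.6 TPM. The recovery libraries held 0.682, 0.512 and 0.284 TPM of HORMAD1 and 1.31, 1.55 and 1.13 TPM of AL356292.1.

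Of 5 genes that follow HORMAD1 on that side, 4 had separate groups. CTSS, which encodes the lysosomal protease cathepsin S and whose nearest end is 9184 bp from HORMAD1, was at 3.21, 1.87 and 1.55 TPM in control and 9.18, 4.56 and 3.71 TPM in crisis cells (log2FC 1.04, SE 0.28, adjusted p = 0.204 from limma). ARNT, the common partner of the hypoxia-inducible factors, was at 16.2, 14.8 and 22.3 TPM against 36.5, 25.8 and 32.9 TPM (log2FC 0.81, SE 0.15, adjusted p = 0.0515). Neither passed at 0.01, although the libraries of the 2 groups did not overlap, and ARNT was called without control 3. Acute cells had means of 7.72 TPM for CTSS and 30.0 TPM for ARNT, beside 5.82 and 31.8 TPM in crisis cells. UBE2D3P3, a processed pseudogene between them that was too low to be tested, was at 0.514, 0.517 and 0.319 TPM against 6.91, 1.73 and 3.49 TPM. CTSK, the protease cathepsin K between CTSS and ARNT, did not share this, at 87.2, 83.9 and 82.2 TPM against 85.3, 98.9 and 81.0 TPM (log2FC 0.06, SE 0.09, adjusted p = 0.815). Within 500 kb of HORMAD1, 26 genes were tested, of which 12 had higher and 14 lower means in crisis cells, beside 69.9% higher among all genes. In 5 all crisis libraries were above control and in 4 all were below, beside 13.0% and 2.50% of all genes. GOLPH3L, whose nearest end is 906 bp from HORMAD1 on its other side, was at 12.9, 12.5 and 11.5 TPM in control and at 17.4, 11.9 and 15.0 TPM in crisis cells, and those groups overlapped. Farther on the same side, ECM1, an extracellular matrix protein, had lower means in crisis cells, at 37.2, 33.2 and 33.2 TPM against 22.4, 25.8 and 22.8 TPM (log2FC −0.53, SE 0.12, adjusted p = 0.137).

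**Figure D3:**
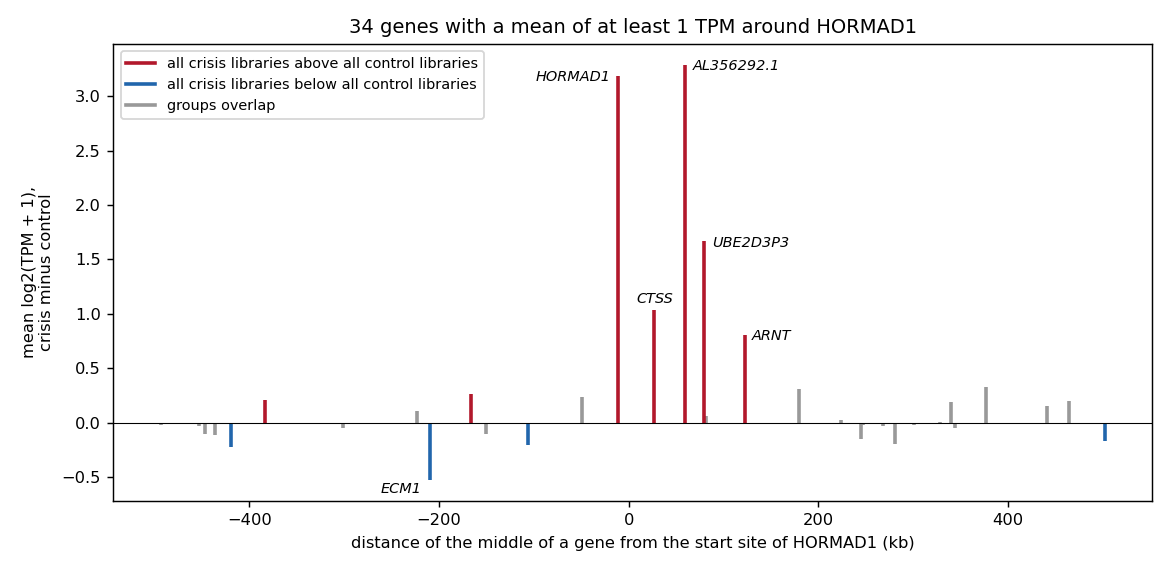
Mean log2(TPM + 1) in crisis minus that in control cells (vertical axis) of the 34 genes that averaged 1 TPM or more in these 6 libraries, at the distance in kb of each gene's middle from the start site of HORMAD1 (horizontal axis, positive away from the gene body). Red marks all crisis libraries above all control libraries, blue the opposite and grey an overlap. HORMAD1, CTSS, AL356292.1, UBE2D3P3 and ARNT are red, and CTSK among them is grey.

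AC008440.2, a gene of long noncoding RNA on chromosome 19, was at 4.57, 8.68 and 10.5 TPM in crisis cells and listed at 0 in each control library (adjusted p = 0.0019 from limma, and from 1.74e-06 to 0.0725 over 17 alternatives). No fold is given against a group listed at 0. Acute cells held 2.67, 11.7 and 11.6 TPM, adapted cells 10.3, 12.9 and 4.59 TPM and recovery cells 11.7, 10.2 and 14.5 TPM. The control group alone was listed at 0, and the log2FC between crisis and acute cells was 0.03. The gene lies within MYADM on the opposite strand, whose mean was 46.1 TPM in control and 53.2 TPM in crisis cells. No source used here gives the strand setting of the quantification, so reads of the pair may not be separable. With the filter lowered to a mean of 1 TPM, AC120114.4 on chromosome 16 was called too, with 0 TPM listed in each control library and 5.28, 4.15 and 6.38 TPM in the crisis libraries (adjusted p = 0.00543), and with no filter its call was lost (adjusted p = 0.0459). It overlaps MVP on the same strand, a gene at 131 TPM in control cells.

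Other large differences upward fell short of the threshold. ACTA2, the actin of smooth muscle cells and myofibroblasts, was at 24.7, 23.0 and 21.5 TPM in control and 51.8, 43.8 and 42.1 TPM in crisis cells. Each crisis library held more than any control library, with a log2FC of 0.96 (SE 0.15, adjusted p = 0.0137 from limma, and from 0.00648 to 0.0966 over 18 alternatives). SIK1, a salt-inducible kinase that restrains CREB-driven transcription, was at 17.4, 13.2 and 29.0 TPM against 37.7, 39.4 and 40.9 TPM (log2FC 1.02, SE 0.19, adjusted p = 0.0515). TRIML2, a tripartite motif family member known to be induced by p53, was at 7.26, 9.21 and 10.6 TPM against 14.8, 17.1 and 18.2 TPM (log2FC 0.83, SE 0.13, adjusted p = 0.0123). ACTA2 overlaps FAS and STAMBPL1 on the opposite strand, with FAS at a mean of 21.01 TPM in control and 27.2 TPM in crisis cells, so reads of these may be shared. The other 6 were repeated or overlapping features to which the same applies. NPIPB4 and NPIPB13 belong to a family of near-identical copies on chromosome 16, and had log2FC values of 0.95 (adjusted p = 0.0392) and 1.21 (adjusted p = 0.137), while the related NPIPA7 had −0.53 (adjusted p = 0.29). TGFB2-OT1, AL669831.5, RPL32P29 and AC139887.2 overlap other genes and had log2FC values of 0.77 to 1.68.

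No gene passed the test as lower at the filter used. With a term for the replicate number added to the fit (a replicate block), CXCL3 was called lower. Its adjusted p from limma was then 0.0029 to 0.0044, with and without the GC correction. With no filter limma called 2 lower genes, and at the filter used the 187 genes given above were lower without adjustment. Of the 15 largest falls among genes with an unadjusted p under 0.01 and separate groups, 4 are induced by NF-kB. They are CXCL3, TNFAIP3, CSF2 and ZC3H12A, and their levels are given with the other NF-kB targets. COX6A1P2, a processed pseudogene of a cytochrome c oxidase subunit, was at 55.4, 20.9 and 0.000758 TPM in control and listed at 0 in each crisis library, so its control values spanned almost its whole range. AC073896.1, AP000295.1, AC092849.1, ASDURF and AC117378.1 overlap other expressed genes and had log2FC values of −1.28 to −0.74. The rest included BATF3, a transcription factor of the AP-1 family, at 9.48, 10.1 and 9.60 TPM against 6.62, 6.94 and 5.18 TPM (log2FC −0.57, SE 0.16, adjusted p = 0.228 from limma). PPCDC, an enzyme of coenzyme A synthesis, was at 9.10, 12.7 and 12.4 TPM against 7.05, 6.79 and 8.10 TPM (log2FC −0.57, SE 0.17, adjusted p = 0.264). PPCS, which acts one step earlier in that synthesis and was looked up after its value was seen, was at 19.9, 17.0 and 20.3 TPM against 12.9, 13.0 and 11.9 TPM (log2FC −0.56, SE 0.14, adjusted p = 0.175). GLI4, TMEM54 and GNRHR2P1 had −0.64, −0.58 and −0.58, with adjusted p-values of 0.182, 0.137 and 0.261.

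NF-kB is a dimeric transcription factor held in the cytoplasm by IkB proteins. On inflammatory signals it enters the nucleus, binds kappaB sites and turns on chemokines, cytokines and its own inhibitors. The start-site regions of 3 targets are shown because each holds the letters searched, GGGNNNTTCC on either strand, which are in capitals. They are 80 bases of RefSeq sequence (GRCh38.p14), read 5′ to 3′ on the strand of the gene, for CXCL3 at chr4:74038720-74038799 (minus strand), TNFAIP3 at chr6:137867159-137867238 (plus strand) and NFKBIA at chr14:35404780-35404859 (minus strand).
CXCL3: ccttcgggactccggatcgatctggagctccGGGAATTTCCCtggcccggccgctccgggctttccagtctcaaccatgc
TNFAIP3: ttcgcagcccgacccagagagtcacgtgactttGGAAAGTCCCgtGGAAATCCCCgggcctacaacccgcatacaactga
NFKBIA: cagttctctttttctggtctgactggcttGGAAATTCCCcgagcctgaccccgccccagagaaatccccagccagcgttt
In CXCL3 the capitals are 2 overlapping matches, and in TNFAIP3 they are 2 separate ones. Of the 21 tested NF-kB targets, 16 matched a RefSeq promoter of 300 bases, and 6 of these hold the letters (CXCL3, IL6, NFKB1, NFKBIA, NFKBIZ and TNFAIP3). The letters are in 6.47% of all 27305 promoters and in 7.66% of the 7955 of tested genes. A match is a description of the sequence and not a site of binding.

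The NF-kB targets had lower levels in crisis cells. Of the 21 tested, 19 had a lower mean and 2 a higher one, with a median log2 fold change of −0.38 beside 0.08 for all genes. At an unadjusted p under 0.05, 11 were lower and 0 higher, beside 1.83% and 9.32% of all genes. In 11 the crisis libraries lay wholly below the control libraries, beside 2.50%. None passed the adjusted threshold in this fit, and CXCL3 did with a replicate block. The median was −0.41 after the GC correction and −0.46 after rescaling, and it was −0.31, −0.34 and −0.54 in crisis 1, crisis 2 and crisis 3 against the control mean. Control 1 was the highest control library in 18 of the 21 genes. Without control 1 the median was −0.30 with 5 genes lower and 1 higher at p under 0.05, and without crisis 3 it was −0.34 with 7 lower. The count of lower genes at that p was 5 to 11 over the libraries left out.

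Chemokines and cytokines were among the members with the largest differences. CXCL3, which attracts neutrophils, was at 16.1, 11.1 and 10.3 TPM in control and 6.24, 4.19 and 5.17 TPM in crisis cells (log2FC −1.11, SE 0.21, adjusted p = 0.054 from limma, and from 0.00292 to 0.285 over 18 alternatives). CXCL8, the more abundant chemokine of that kind, was at 445, 252 and 282 TPM against 208, 181 and 188 TPM (log2FC −0.72, SE 0.25, adjusted p = 0.327). In both, the highest crisis library was below the lowest control library. CSF2, the growth factor of granulocytes and macrophages, was at 32.3, 20.6 and 18.6 TPM against 14.01, 15.6 and 13.0 TPM (log2FC −0.67, SE 0.23, adjusted p = 0.313). IL1B and CCL2 had log2FC values of −0.54 and −0.64, with groups that did not overlap, while IL6 had −0.32 with overlapping groups.

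Several inhibitors that NF-kB itself induces had lower means in crisis cells, and none passed the test. TNFAIP3, the ubiquitin-editing enzyme A20, was at 13.8, 10.2 and 9.77 TPM in control and 7.59, 4.73 and 5.20 TPM in crisis cells (log2FC −0.85, SE 0.21, adjusted p = 0.175). ZC3H12A, an endonuclease that degrades cytokine mRNAs, was at 11.6, 9.004 and 10.997 TPM against 7.03, 6.95 and 6.29 TPM (log2FC −0.57, SE 0.17, adjusted p = 0.257). Neither gene overlapped between groups. NFKBIA, the inhibitor IkBα, was at 40.8, 35.8 and 34.1 TPM against 34.5, 27.9 and 25.02 TPM (log2FC −0.34, SE 0.11, adjusted p = 0.286), and there crisis 1 lay within the control range. SOD2, the manganese superoxide dismutase of mitochondria, was at 139.7, 100.8 and 117 TPM against 95.04, 79.1 and 78.9 TPM (log2FC −0.49, SE 0.14, adjusted p = 0.237). ZFP36, an mRNA decay factor of the immediate early genes, had a log2FC of −0.51 (adjusted p = 0.286). The subunit NFKB1 and the cytokine LIF were the 2 members with higher means.

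Genes of the actin cytoskeleton had higher means in crisis cells, and none passed the adjusted threshold. Serum response factor (SRF) binds CArG boxes with cofactors that respond to free actin, and it drives actins, tropomyosins, calponins and myosin regulators. A pair of 80-base stretches from RefSeq (GRCh38.p14) are shown because each carries a CArG box, in capitals, upstream of a start site, for TPM4 at chr19:16067328-16067407 (plus strand) and MYLK at chr3:123620599-123620678 (minus strand).
TPM4: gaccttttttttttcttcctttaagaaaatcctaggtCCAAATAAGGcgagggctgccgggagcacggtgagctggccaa
MYLK: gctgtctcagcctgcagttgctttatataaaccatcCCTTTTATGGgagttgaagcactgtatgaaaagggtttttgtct
Of the 25 tested members of the list of smooth muscle actin and SRF targets, 22 matched a promoter and 7 of these hold a CArG box (ACTG1, CNN2, FHL2, FLNA, MYLK, SRF and TPM4). The box is in 1.29% of all 27305 promoters and 1.08% of those of tested genes. ACTA2 has no match within this window. The MYLK stretch lies at a start site inside the gene, which spans 123610049 to 123884332 on the minus strand. It is not at the 5′ end of that span, and which MYLK transcript the reads come from was not tested.

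In crisis cells 23 of the 25 had a higher mean and 2 a lower one, with a median log2 fold change of 0.23 beside 0.08 for all genes. At an unadjusted p under 0.05, 12 were higher and 0 lower, beside 9.32% and 1.83% of all genes. Of the members 11 had crisis libraries wholly above control, beside 13.0%, while none passed the adjusted threshold. After the GC correction the median was 0.21 with 17 higher and 1 lower at that p, beside 560 and 611 of 10185 genes. After rescaling it was 0.14 with 9 higher and 1 lower, beside 363 and 536 of 10196. It was 0.25, 0.33 and 0.05 in crisis 1, crisis 2 and crisis 3, and crisis 3 was the lowest crisis library in 19 of the 25 genes.

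Beyond ACTA2, the members with the smallest p were abundant. TPM4, a tropomyosin of stress fibres, was at 736, 760.0 and 798 TPM in control and 895, 1003 and 934 TPM in crisis cells (log2FC 0.30, SE 0.07, adjusted p = 0.147 from limma). ACTN1, the actin crosslinker α-actinin 1, was at 273, 267 and 269 TPM against 346, 357 and 328 TPM (log2FC 0.35, SE 0.09, adjusted p = 0.189). CNN3, a calponin, was at 339, 337 and 377 TPM against 461, 416 and 434 TPM (log2FC 0.32, SE 0.09, adjusted p = 0.204). None of these 3 overlapped between groups. CALD1, the caldesmon that binds actin and myosin, and MYLK, the kinase of myosin light chains, had log2FC values of 0.43 and 0.34, and β-actin (ACTB) had 0.31. Of YAP and TEAD targets, which respond to cell spreading and tension, 21 of 26 had higher means beside 69.9% of all genes, with a median of 0.12 and 0.07 after the GC correction. ANKRD1, the member with the smallest p, was at 316, 268 and 324 TPM against 365, 472 and 456 TPM (log2FC 0.50, SE 0.11, adjusted p = 0.137). TGFB2, the ligand gene within which TGFB2-OT1 lies, had a log2FC of 0.47 (adjusted p = 0.362).

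**Figure D4:**
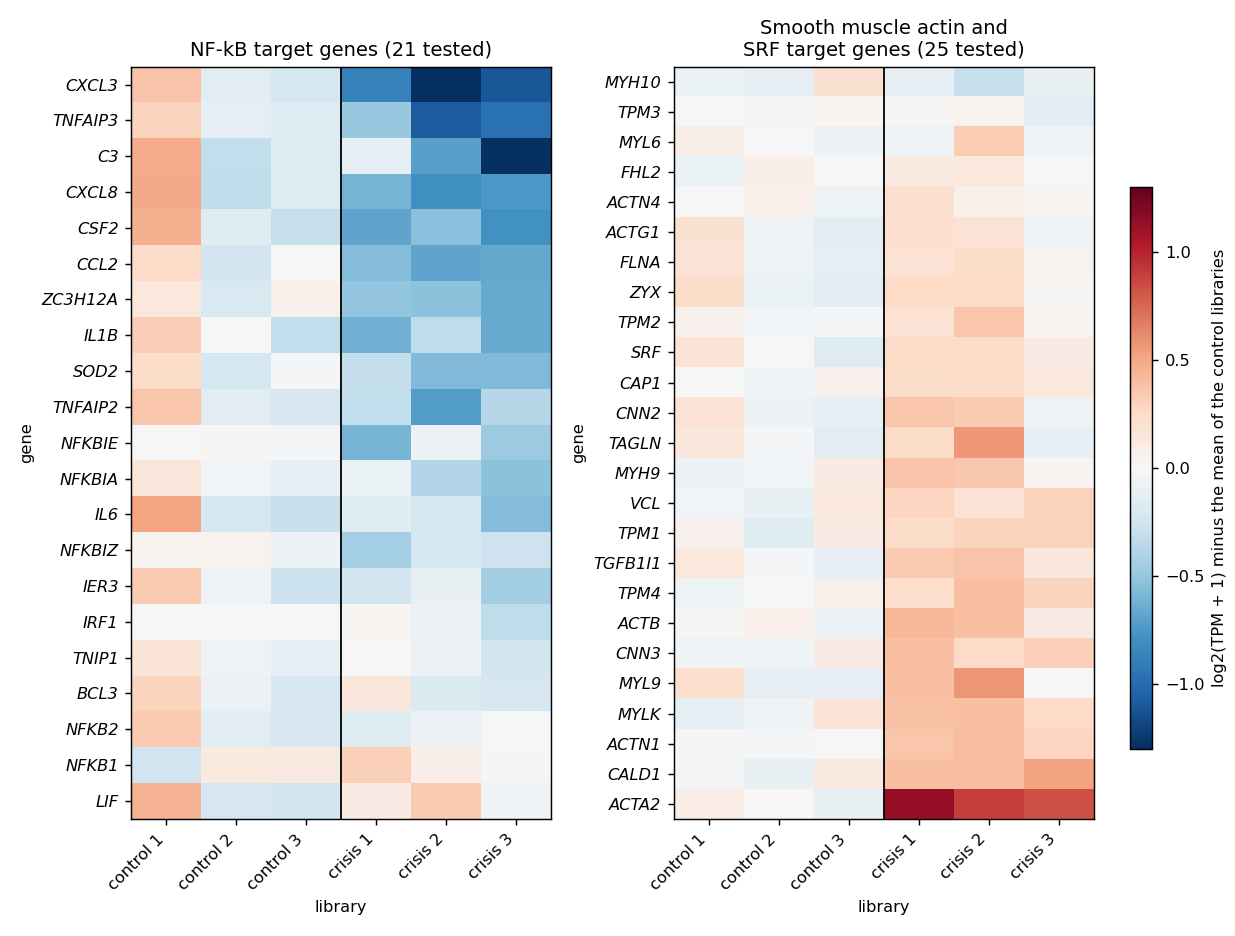
Tested members of the NF-kB target list (left, 21 genes) and the smooth muscle actin and SRF list (right, 25 genes), ordered by log2 fold change, in the 3 control and 3 crisis libraries (columns). Colour is log2(TPM + 1) minus the mean of the control libraries, blue lower and red higher. Control 1 is the reddest control column on the left, and crisis 3 the palest crisis column on the right.

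The p53 targets had higher means in 28 of 31 tested, beside 69.9% of all genes, with a median of 0.20. At an unadjusted p under 0.05, 9 were higher and 0 lower, beside 9.32% and 1.83% of all genes, and 6 had separate groups, beside 13.0%. The median was 0.07 after the GC correction, with 7 higher at that p, beside 560 of 10185 genes. The count was 13 without control 3 or crisis 2 and 5 without control 2 or crisis 3. CDKN1A, which encodes p21, was at 79.9, 83.5 and 70.5 TPM in control and 100.03, 98.2 and 91.2 TPM in crisis cells. Each crisis library exceeded each control library, but the difference did not pass the test (log2FC 0.31, SE 0.10, adjusted p = 0.286 from limma). Acute cells held more, at 139 to 163 TPM, and the log2FC between crisis and acute cells was −0.60 (SE 0.10, adjusted p = 0.0849). POLH, a polymerase that copies past damaged bases, had a log2FC of 0.53 (SE 0.16, adjusted p = 0.277), TIGAR, a phosphatase that slows glycolysis, 0.43 (adjusted p = 0.277), and the receptor EDA2R 0.42 (adjusted p = 0.258). MDM2, the ubiquitin ligase of p53, was at 64.2, 67.9 and 92.3 TPM against 88.1, 75.6 and 110.3 TPM, and those groups overlapped (log2FC 0.29, SE 0.16, adjusted p = 0.514).

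**Figure D5:**
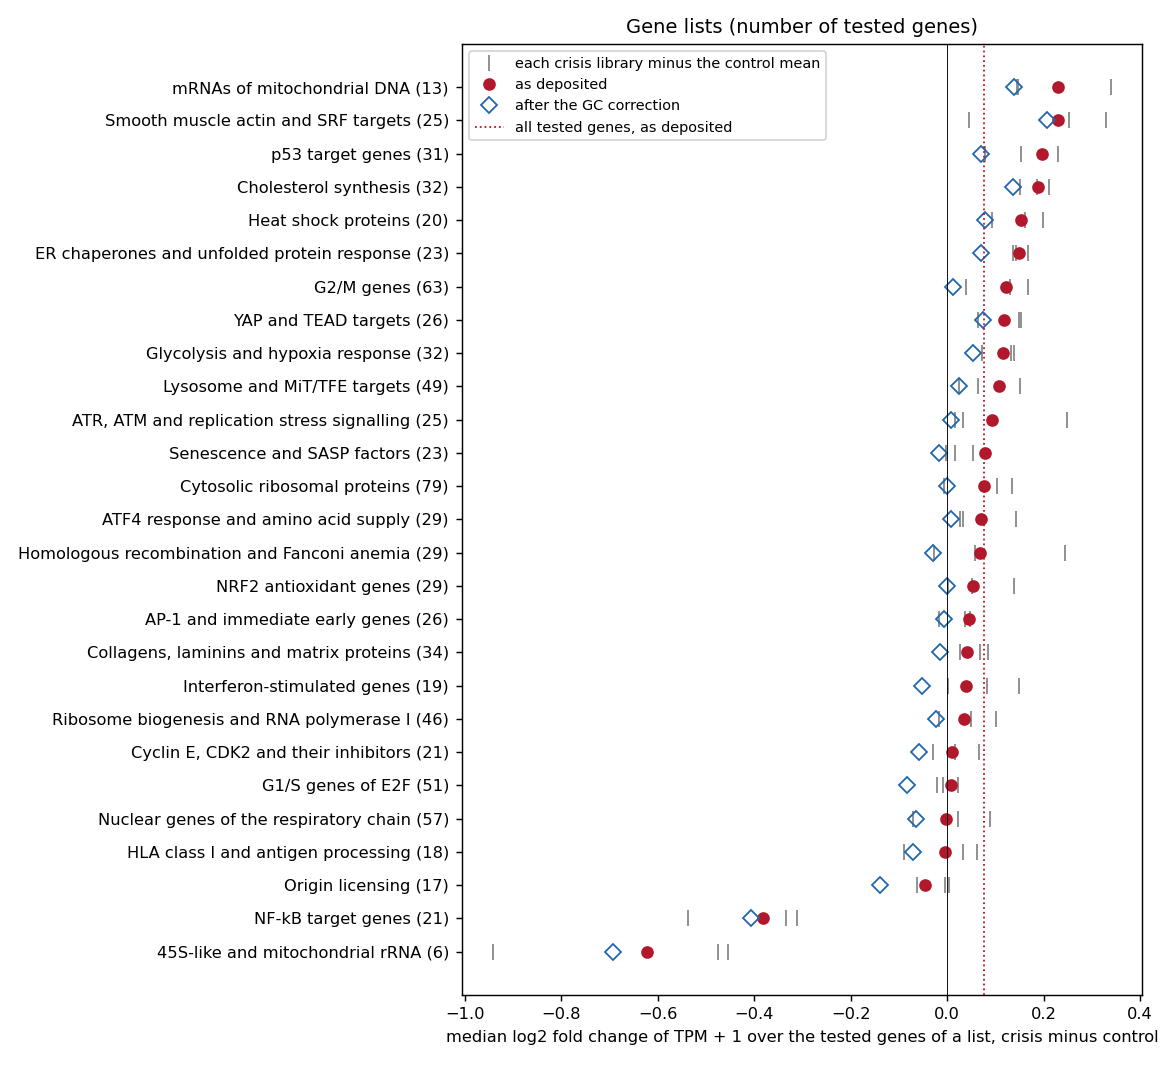
Median log2 fold change of TPM + 1, crisis minus control, over the tested genes of each list with at least 6 of them (number in brackets), as deposited (red points), after the GC correction (blue diamonds) and in each crisis library against the control mean (grey ticks). The dotted line is the median of all tested genes, 0.08. NF-kB targets and rRNA lie on the left, and the SRF targets are at 0.23 and 0.21.

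Cell cycle genes showed small differences. Among cyclin E, its kinase and their inhibitors, 11 of 21 had higher and 10 lower means, with a median of 0.01. CCNE2, the second E-type cyclin, was at 19.8, 23.4 and 19.8 TPM in control and 10.3, 11.6 and 20.5 TPM in crisis cells. Crisis 3 reached the control range while the other crisis libraries were far below it (log2FC −0.60, SE 0.22, adjusted p = 0.335 from limma). WEE1, the kinase that holds CDK1 and CDK2 inactive, had a log2FC of 0.28 (adjusted p = 0.371). G2/M genes had a median of 0.12 with 50 of 63 higher and 16 with separate groups. At an unadjusted p under 0.05, 8 were higher and 0 lower, beside 9.32% and 1.83% of all genes. After the GC correction the median was 0.01, with 1 higher and 1 lower at that p, beside 560 and 611 of 10185 genes. CENPF, a kinetochore protein, had the smallest p among them, at 54.8, 51.7 and 54.2 TPM against 74.9, 72.5 and 80.0 TPM (log2FC 0.49, SE 0.11, adjusted p = 0.147). The G1/S genes of E2F had a median of 0.01, with 27 of 51 higher, and −0.08 after the GC correction.

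Origin licensing genes leaned lower. Of 17 tested, 12 had a lower mean, with a median of −0.05, and −0.14 after the GC correction, and 1 was lower at an unadjusted p under 0.05. That gene was CDT1, the MCM loader, at 19.4, 18.4 and 14.4 TPM in control and 13.3, 13.8 and 11.1 TPM in crisis cells. The groups did not overlap, and the difference did not pass the test (log2FC −0.41, SE 0.16, adjusted p = 0.35 from limma). The helicase subunit MCM2 was at 92.0, 88.2 and 77.5 TPM against 72.9, 75.0 and 67.8 TPM (log2FC −0.25, SE 0.13, adjusted p = 0.492), also without overlap. MCM5, another subunit, was at 108, 115 and 84.2 TPM against 87.9, 98.0 and 92.1 TPM, with overlapping groups (log2FC −0.13, SE 0.12, adjusted p = 0.688). ORC6, of the origin recognition complex, had 0.24 (adjusted p = 0.482 from limma). DTL, the receptor of the ligase that destroys CDT1 in S phase, had 0.17 (adjusted p = 0.486). In both, all crisis libraries were above all control libraries. Groups of the list were thus separate upward for 2 members and downward for 2, beside 13.0% and 2.50% of all genes. With 1 library left out the list median ran from −0.082 to 0.0025.

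Genes of the DNA damage response did not pass the test. ATM was at 22.1, 20.7 and 20.3 TPM in control and 27.6, 26.5 and 27.8 TPM in crisis cells, without overlap (log2FC 0.36, SE 0.13, adjusted p = 0.339 from limma). The histone variant gene H2AX, listed as H2AFX, was at 134, 109 and 97.5 TPM against 94.7, 101 and 86.8 TPM, and its groups overlapped (log2FC −0.26, SE 0.16, adjusted p = 0.539). RNF8, a ubiquitin ligase of damaged chromatin, had 0.29 (adjusted p = 0.286) and RAD54L, a motor of homologous recombination, 0.39 (adjusted p = 0.351). The medians of the ATR and ATM list and of the homologous recombination list were 0.09 and 0.07, and the latter turned to −0.03 after the GC correction and −0.02 after rescaling. Of 17 replication-dependent histone genes 3 averaged 5 TPM or more and were tested. The libraries were made with an mRNA kit, and how well it captures these transcripts was not tested, so their TPM need not follow their expression. HIST1H1C, HIST1H1E and HIST1H2BK had −0.11, −0.15 and −0.05, with adjusted p-values of 0.764 to 0.925, and the latter pair turned positive without 1 library.

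A few lysosomal and iron storage genes had higher levels without overlap, and none passed the test. CTSD, the aspartic protease cathepsin D, was at 2056, 1823 and 1944 TPM in control and 3139.9, 2824 and 2827 TPM in crisis cells, with no overlap (log2FC 0.59, SE 0.13, adjusted p = 0.137 from limma). GPNMB, a lysosomal and melanosomal glycoprotein, was at 91.2, 95.7 and 101 TPM against 133, 154 and 135 TPM (log2FC 0.55, SE 0.10, adjusted p = 0.0515). TPP1, a peptidase of lysosomes, had a log2FC of 0.35 (adjusted p = 0.182). The whole list of lysosomal and MiT/TFE genes had 35 of 49 higher beside 69.9% of all genes, a median of 0.11 and 0.02 after the GC correction, so these members lay above the median of their list. The ferritin chains behaved alike. FTH1 was at 3268, 3279 and 3375 TPM against 4826, 4849.5 and 4116 TPM (log2FC 0.47, SE 0.11, adjusted p = 0.147), and FTL had 0.47 (SE 0.13, adjusted p = 0.217). The NRF2 antioxidant list they belong to had 17 of 29 higher and a median of 0.05.

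Sterol and lipid synthesis was higher by means. Of 32 genes of that list, 29 had a higher mean, with a median of 0.19, and 11 had separate groups. At an unadjusted p under 0.05, 13 were higher and 0 lower, beside 9.32% and 1.83% of all genes. After the GC correction the median was 0.14 with 6 higher at that p, beside 560 of 10185 genes. After rescaling it was 0.11 with 4 higher, beside 363 of 10196. Leaving out a library gave 7 to 13, with 7 without control 2 or crisis 1. SREBF2, the transcription factor that controls these enzymes, was at 39.6, 35.5 and 39.0 TPM in control and 54.5, 52.6 and 46.7 TPM in crisis cells (log2FC 0.42, SE 0.10, adjusted p = 0.182 from limma). SCD, the desaturase of stearic acid, was at 61.1, 64.1 and 74.6 TPM against 112, 83.8 and 88.4 TPM (log2FC 0.50, SE 0.14, adjusted p = 0.224). FDFT1, which makes squalene, had 0.26 (adjusted p = 0.325).

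Glycolysis and hypoxia genes had a median of 0.12 and 0.05 after the GC correction, with 28 of 32 higher. At an unadjusted p under 0.05, 6 were higher, beside 9.32% of all genes. EPAS1, which encodes the hypoxia-inducible factor HIF-2α, was at 14.8, 11.8 and 13.8 TPM in control and 24.6, 20.7 and 19.8 TPM in crisis cells (log2FC 0.65, SE 0.16, adjusted p = 0.187 from limma). PKM, pyruvate kinase, was at 2829, 2900 and 2726 TPM against 3851, 3736 and 3346 TPM (log2FC 0.37, SE 0.10, adjusted p = 0.196). Neither overlapped between groups, and ARNT, the partner of EPAS1, is the gene near HORMAD1 described above. ER chaperones had 20 of 23 higher by mean, with a median of 0.15, and 0.07 after the GC correction, and 8 higher at that p. PDIA4, a disulfide isomerase, was at 140, 142 and 138 TPM against 169, 167 and 166 TPM (log2FC 0.26, SE 0.07, adjusted p = 0.228). Calreticulin (CALR) and the secreted factor MANF had 0.27 and 0.24. Heat shock proteins had 19 of 20 higher, a median of 0.15 and 0.08 after the GC correction, with HSPH1 at 0.47 (SE 0.13, adjusted p = 0.204).

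The ATF4 list had a median of 0.07 and 0.01 after the GC correction, with DDIT3 (CHOP) at 0.38 (adjusted p = 0.286) and ATF5 at −0.37 (adjusted p = 0.327). Senescence and secretory factors did not move as one. Of 23 tested, 14 had higher and 9 lower means. By unadjusted p under 0.05, 3 were higher and 4 lower, beside 9.32% and 1.83% of all genes. The metalloprotease inhibitor TIMP2 was higher, at 240.0, 243 and 247 TPM in control and 313, 324 and 285 TPM in crisis cells (log2FC 0.33, SE 0.09, adjusted p = 0.189 from limma), while CXCL8, IL1B and IGFBP3, with −0.32, were lower. Of the matrix genes 20 of 34 were higher, a smaller share than the 69.9% of all genes, with LOX at −0.27 (adjusted p = 0.329) and LOXL1 at 0.28 (adjusted p = 0.385). Rescaling took the medians of the ATF4, NRF2, senescence and matrix lists to −0.02, −0.03, −0.01 and −0.04. The medians of interferon-stimulated genes, HLA class I and antigen processing genes, and immediate early genes were 0.04, 0.00 and 0.04, and each was at −0.01 to −0.07 after the GC correction.

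Ribosomal RNA entries were lower, and mitochondrial mRNAs higher by means. FP236383.2, FP236383.3 and FP671120.4, 45S-like entries with identical values that share their reads, were each at 46038, 45242 and 38445 TPM in control and 28999, 22400 and 30262 TPM in crisis cells (log2FC −0.68, SE 0.26, adjusted p = 0.353 from limma). MT-RNR2, the large mitochondrial rRNA, was at 5228, 4295 and 4271 TPM against 3915, 2832 and 3471 TPM (log2FC −0.44, SE 0.18, adjusted p = 0.382). All 6 tested rRNA entries were lower with no overlap, and their share of each library enters the TPM of every other gene. The part of rRNA carry-over in these values was not tested. The 13 mRNAs of mitochondrial DNA all had higher means, with a median of 0.23 and 0.14 after the GC correction, but none had separate groups. MT-ATP8 had the smallest p, at 1044, 1317 and 1849 TPM against 1975, 1833 and 2037 TPM (log2FC 0.51, SE 0.16, adjusted p = 0.286). Cytosolic ribosomal protein genes had 68 of 79 higher, with a median of 0.08, the same as all genes, and 0.00 after the GC correction, and ribosome biogenesis genes had a median of 0.04, which turned to −0.02 after it.

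Cell identity was checked with marker lists. RPE65, the isomerase that defines the visual cycle of retinal pigment epithelium, was listed at 0 in all 6 libraries, and 8 of 19 markers of that tissue were under 1 TPM in each. OTX2, PAX6 and MITF, transcription factors of the lineage, were at 13.2 to 16.01, 24.7 to 28.4 and 15.6 to 19.9 TPM in control cells, against 16.05 to 19.1, 29.1 to 33.9 and 17.0 to 20.0 TPM in crisis cells. That list summed to 955 to 1042 TPM in control cells, and to 1000.1 to 1177 TPM in crisis cells. The epithelial list summed to 892 to 1006 and 921 to 1112 TPM. KRT8 and KRT18, keratins that belong to both lists, made up most of each sum. Each of the 6 libraries held at least 463.57 TPM of KRT8 and 351.54 TPM of KRT18. These sums are therefore not separate checks of identity, and they say little about the other markers. The keratins KRT7 and KRT8 had log2FC values of 0.03 and 0.06, which turned negative after rescaling, and KRT18 had 0.19 with overlapping groups. DSP, the desmosomal protein desmoplakin, was at 12.8, 12.5 and 13.9 TPM in control and 9.86, 10.7 and 11.8 TPM in crisis cells, without overlap (log2FC −0.25, SE 0.11, adjusted p = 0.395). CDH1 and EPCAM stayed under 0.4 TPM, while the mesenchymal marker VIM was at 4674 to 4858 and 4409 to 4613 TPM. The summed mesenchymal list was at 6956 to 7223 and 6755 to 7244 TPM. VIM was wholly lower in crisis cells, while 9 of the 13 tested members had higher means, beside 69.9% of all genes. Groups were separate upward for 4 of them (ZEB1, ZEB2, PDGFRB and FAP), beside 13.0%. The median was 0.14, and 0.05 after the GC correction, with 1 higher and 2 lower then at an unadjusted p under 0.05. ZEB2, a repressor of epithelial genes, had a log2FC of 0.32 (SE 0.09, adjusted p = 0.261). Leukocyte markers summed to 67.4 to 80.5 and 55.6 to 65.0 TPM, most of it CD68 at 63.3 to 73.9 and 48.8 to 58.2 TPM. CSF1R, the other tested member, went the other way, at 5.87, 3.55 and 3.44 TPM in control and 6.44, 6.50 and 6.30 TPM in crisis cells (log2FC 0.52, SE 0.21, adjusted p = 0.366). Both had separate groups. CD3E and MS4A1 were listed at 0 in every library. Endothelial markers summed to 1.42 to 2.68 and 2.67 to 3.82 TPM. In a bulk library, fewer cells with a transcript and less of it per cell cannot be told apart.

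No chromosome stood far from the others. Medians of the tested genes of each autosome and of X ran from 0.02 (chromosome 19) to 0.13 (chromosome 13), and after the GC correction from −0.02 to 0.03. Chromosome 12 had the highest median after the correction, 0.03 over 598 genes, at 0.03, 0.02 and 0.03 in the 3 crisis libraries, and 91 of its genes (15.2%, beside 9.32% of all genes) were higher at an unadjusted p under 0.05.

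The course after crisis differed between genes. In adapted cells, where growth had recovered, limma called 0 genes against crisis cells, while 183 were higher and 824 lower by unadjusted p under 0.05. CTSD went from the crisis values above to 1697, 2160 and 2438 TPM in adapted cells (log2FC of adapted against crisis −0.50, SE 0.13, adjusted p = 0.379), and ACTA2 to 25.5, 33.2 and 36.7 TPM (−0.52, SE 0.15, adjusted p = 0.401). Both had stood lower in acute cells, ACTA2 at 30.8, 32.8 and 33.7 TPM. By contrast CXCL3 stayed at 6.48, 5.99 and 4.64 TPM in adapted cells (0.12, SE 0.21, adjusted p = 0.88), within or close to its crisis range, and TNFAIP3 at 6.01, 6.10 and 4.82 TPM. Their list as a whole did not stay level. Among the 21 tested NF-kB targets, 19 had a lower mean in adapted than in crisis cells and 2 a higher one. The median was −0.21, beside −0.04 for all genes. In recovery cells CXCL3 was at 11.3, 8.11 and 11.03 TPM and TNFAIP3 at 6.73, 8.88 and 11.2 TPM. These comparisons share the crisis libraries with the comparison to control.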

How the data were processed

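RNA was extracted from 15 cultures, 3 per group, and the authors prepared all libraries at once with an mRNA kit. The deposited TPM values, for 60603 entries, come from kallisto run on hg38 transcripts. Library sums were 999659 to 999726. The table also holds the authors' own log2 fold changes and adjusted p-values against control, which were not used. No source used here gives the strand setting or the transcript annotation, and no file gives depth. The labelled days of crisis run past those in the paper's text, and the labels were followed. Every column of values was assigned to a sample, leaving 0 without one.

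After 45 identical copies of pseudoautosomal genes were dropped, 60558 genes were left, and 60261 matched GENCODE 44, which gave positions, overlaps and GC content. The 10196 genes that averaged 5 TPM or more were fitted as log2(TPM + 1) with limma 3.58.1 in R 4.3.3 (5 group means over 15 libraries, trend, prior df 6.63, 2-sided), with calls made below 0.01 after Benjamini-Hochberg adjustment. This scale understates changes of genes near 0 TPM. Tested on simulated data for crisis against control (10196 genes), the fit called 61 of 67 genes given a log2 shift of 1, 21 of 67 given 0.5 and 0 of 9996 given none. Noise there was drawn for each gene on its own, so differences that genes share within a library, as with GC content, were left out. The 0 of 9996 therefore does not cover calls that arise from such differences.

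Genes named are CCNE1, CDKN1A and all called genes, the 15 largest rises and 15 largest falls among genes with an unadjusted p under 0.01 and separate groups, genes called with a filter of 1 TPM, up to 4 members of each of 34 lists by p, and MCM5, CDT1, ATM and H2AX, with several added after their values were seen (PPCS, NFKBIA, IL1B, CCL2, IL6, MDM2, NPIPA7, MCM2, ACTB, CALD1, MYLK, GOLPH3L, CTSK, ECM1, UBE2D3P3 and MITF among them). The comparison, the lists and the genes were chosen with earlier results of these data known, and lists are described by counts and medians without a test. Replicate cultures were begun weeks apart, by the paper. Alternatives were other pseudocounts, filters, scalings and thresholds, a GC loess (span 0.3), no variance trend, a replicate block, the 6 libraries alone, and each library left out. Some genes that the rule picks are not reported here.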

Additional observations from a re-analysis of the deposited data

Results flagged for a closer look

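CCNE1 differed between crisis and acute cells, a difference tested directly between those groups, by −1.94 in log2 for crisis minus acute (limma, SE 0.11 and adjusted p = 4.57e-08). The 3 crisis libraries, at 32.9 to 44.9 TPM, all lay below the 3 acute libraries, at 136 to 163 TPM. What sets the lower level was not tested.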

How the results depend on the processing

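CCNE1, HORMAD1 and AL356292.1 kept their direction and their call under every alternative run. The log2 fold change ran from 1.85 to 2.44 for CCNE1, from 1.57 to 4.98 for HORMAD1 and from 1.90 to 4.29 for AL356292.1. The count of 4 called genes was 7 at a threshold of 0.05 and 3 to 7 with 1 library left out, the highest without control 3, and 3 to 6 under the other alternatives, with fewer or more genes tested in some. The GC correction turned 950 higher and 187 lower genes at an unadjusted p under 0.05 into 560 and 611. Same-numbered control and crisis libraries had correlations of their deviations of 0.08, 0.10 and 0.34, and of −0.03, 0.01 and 0.03 after the GC correction. With 3 libraries per group these values cannot settle whether equal numbers mark the same time course. With a replicate block 5 genes were called, 4 higher and CXCL3 lower, and with a replicate block and the GC correction 4, of which CXCL3 was again lower. AC008440.2 lost its call under 8 of 17 alternatives, and the cause was not tested. Depth is not recorded in TPM, so precision at low levels could not be assessed. The direction reversed for 5 named genes, none of them near a call. CTSK (0.06) was at −0.032 with the GC correction, −0.032 with the replicate block and the GC correction, −0.0232 after median-of-ratios rescaling and −0.0258 without rRNA. KRT8 (0.06) was at −0.0222 and −0.0248 with the latter alternatives, and KRT7 (0.03) at −0.0563 and −0.059. With 1 library left out, CTSK ran from −0.0214 to 0.121, KRT8 from −0.00338 to 0.131, KRT7 from −0.0748 to 0.121, HIST1H1E from −0.372 to 0.0127 and HIST1H2BK from −0.17 to 0.0493. Each of the 5 differed by less than its SE, and the cause was not tested.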
